A study of Mus musculus with 6 samples.

Results

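Klf1, Nfe2, Epor, Slc4a1, Sptb, Alas2, Hemgn and Ermap are genes of red cell development, and they were taken by symbol as 8 of the 23420 rows of a mouse gene count table. The tdTom+ group held 3 libraries of tdTomato-positive cells and the tdTom- group 3 libraries of tdTomato-negative cells, all sorted as endothelial cells from whole embryos of the strain Csf1r-iCre;RosatdTomato at embryonic day 12.5. Both groups carried the same alleles: Csf1r-iCre, a Cre recombinase under the promoter of the myeloid receptor gene Csf1r, and a Rosa26 reporter that turns on the red protein tdTomato after recombination, so tdTomato marks cells that used this promoter and their descendants. Cells with PECAM1 on their surface and without CD45, CD11b and KIT were collected from 3 embryos and divided by tdTomato. As the labels give it, the gate used no surface protein found only on red cells or platelets. The labels do not say which embryo gave which library, so p-values measure the spread between these libraries.

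Red cell precursors are built by a small set of transcription factors. KLF1 binds CACCC boxes and switches on adult globin, membrane and haem genes. NFE2 is the larger subunit of the factor NF-E2, which acts in red cell precursors and in megakaryocytes, where it is needed for platelet release. Signals from erythropoietin reach these cells through EPOR. The mature cell is held in shape by a spectrin skeleton and exchanges bicarbonate for chloride through band 3. Haem synthesis starts in the precursors with the enzyme ALAS2. In the mouse embryo the first red cells come from the yolk sac and circulate as nucleated cells, and later ones come from the fetal liver.

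RefSeq promoter windows (GRCm38.p6, 250 bases before to 50 after the gene start) were at hand for 6 of the 8 genes, namely Klf1, Epor, Sptb, Alas2, Hemgn and Ermap. These were searched on both strands for GATAA, the core bound by GATA factors, for CCNCNCCC, a form of the CACCC box, and for TGAGTCA, the core of the NF-E2 site. GATAA was found in 5 of the 6 windows, against 25.4% of all 32851 promoter windows, and CCNCNCCC in 4 of the 6, against 49.5%. TGAGTCA was in 0 of the 6, against 5.20%. No match of one motif overlapped a match of another. The windows of 3 genes are shown because they had the largest fold change with a window at hand (Klf1), the smallest (Alas2) and a place between them (Epor). Capitals mark the matches, and TTATC is GATAA read from the other strand.
Klf1: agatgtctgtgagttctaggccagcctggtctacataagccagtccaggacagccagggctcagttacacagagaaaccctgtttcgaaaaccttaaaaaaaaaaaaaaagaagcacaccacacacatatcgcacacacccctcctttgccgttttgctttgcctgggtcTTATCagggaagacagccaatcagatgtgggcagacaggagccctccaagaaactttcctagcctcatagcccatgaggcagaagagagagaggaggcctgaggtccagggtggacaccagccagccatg
Epor: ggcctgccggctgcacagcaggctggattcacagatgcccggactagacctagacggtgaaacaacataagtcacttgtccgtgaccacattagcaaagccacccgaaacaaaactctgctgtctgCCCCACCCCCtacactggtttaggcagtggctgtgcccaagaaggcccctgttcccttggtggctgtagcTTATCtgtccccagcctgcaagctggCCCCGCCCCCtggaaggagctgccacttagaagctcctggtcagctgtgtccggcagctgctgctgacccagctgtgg
Alas2: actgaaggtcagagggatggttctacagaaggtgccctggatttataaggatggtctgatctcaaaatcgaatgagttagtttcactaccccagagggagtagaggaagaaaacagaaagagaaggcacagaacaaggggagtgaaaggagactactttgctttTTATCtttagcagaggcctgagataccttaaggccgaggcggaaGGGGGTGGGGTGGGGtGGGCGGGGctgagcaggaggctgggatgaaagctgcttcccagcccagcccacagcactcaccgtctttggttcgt
The Klf1 window (chr8:84901732-84902031, plus strand) held 1 GATAA match, 80 bases before the gene start, and no CCNCNCCC. The Epor window (chr9:21963527-21963826, minus strand) held 1 GATAA match 54 bases before the start and 4 partly overlapping CCNCNCCC matches. The Alas2 window (chrX:150547167-150547466, plus strand) also held 1 GATAA match, 86 bases before the start, and 4 CCNCNCCC matches. A match describes letters in the window and is not evidence of binding.

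Totals ran from 8919887 to 11767956 counts per library, and 13142 genes were abundant enough to test. All 8 genes passed that filter, with at least 1.46 CPM (counts scaled to library size) in every library of both groups. Endothelial markers were at like levels, with a summed 10954 to 11730 CPM in tdTom+ and 11246 to 11452 CPM in tdTom- libraries. Of these 15 markers, such as Pecam1 and Cdh5, 0 passed the test with edgeR or DESeq2. An unadjusted p under 0.05 (edgeR) was reached by 1, against 10.7% of all tested genes. The median log2 fold change of all tested genes was -0.00026. Xist was at 1224 and 571 counts in tdTom+ and tdTom- replicate 3 and at most 8 in the other libraries, so replicate 3 of each group held RNA of female cells.

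All 8 genes had a higher mean in tdTom+ than in tdTom- cells, and 2, the transcription factor genes Klf1 and Nfe2, passed the test (quasi-likelihood test of edgeR, p adjusted over all tested genes by Benjamini-Hochberg, threshold 0.05). None of the 8 was called lower. Of all tested genes, 0.769% were called higher and 0.814% lower in tdTom+ cells. In these bulk libraries, more cells of a type and more RNA per cell cannot be told apart. The groups did not overlap in 6 of the 8, all but Alas2 and Hemgn, against 7.88% of all tested genes whose groups were apart in this direction and 9.35% apart in the other. The log2 fold change, tdTom+ minus tdTom-, was above 1 in 7 of the 8 genes, and 2.4% of all tested genes lay above that value. An unadjusted p under 0.05 was reached by 7 of the 8, all but Alas2, with 4.76% of all tested genes reaching it in this direction. The calls depended on single libraries and on the tool. With tdTom+ replicate 3 left out 5 of the 8 passed, where 0.717% of all tested genes were called higher, and with any other single library left out 0 passed. With limma-voom 0 passed too, and with the replicate number as a term 3 passed, where 0.974% of all tested genes were called higher.

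**Figure D1:**
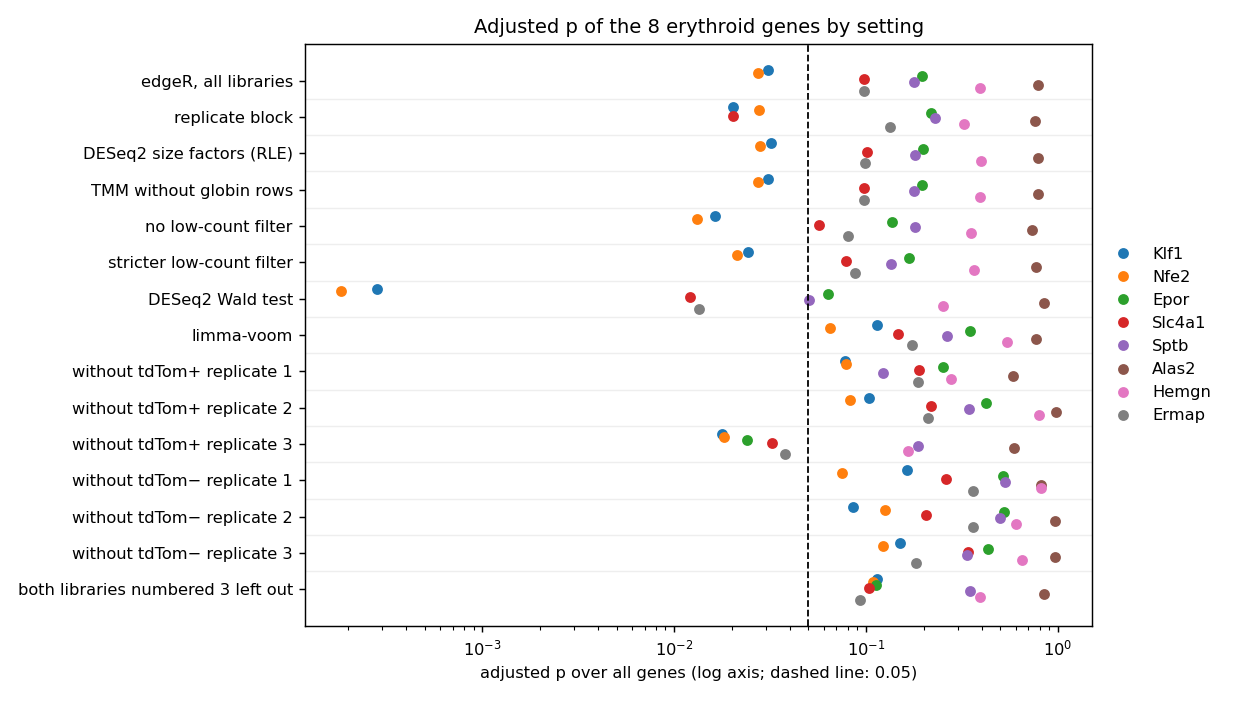
Adjusted p over all tested genes (horizontal log axis, dashed line at 0.05) of the 8 genes, one colour each, in every setting used (rows). Klf1 and Nfe2 lie left of the line with all libraries, at 0.0307 and 0.0274, and right of it with limma-voom and whenever 1 library other than tdTom+ replicate 3 is left out, and Alas2 is right of the line in every row.

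**Figure D2:**
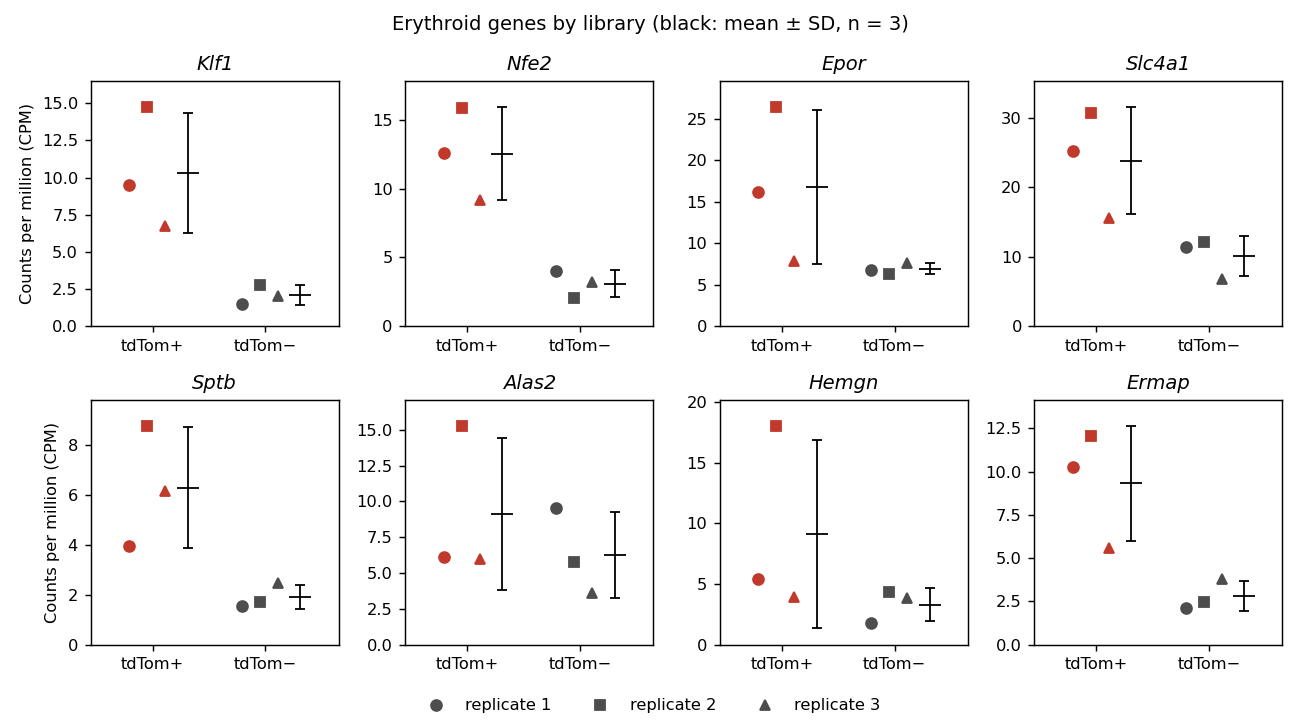
CPM (counts scaled to library size, vertical axis from 0) of the 8 genes in each of the 3 tdTom+ (red) and 3 tdTom- (grey) libraries, with symbols for the replicate numbers and the mean ± SD in black. In Klf1, Nfe2, Epor, Slc4a1, Sptb and Ermap every tdTom+ library lies above every tdTom- library, while Alas2 and Hemgn overlap, and tdTom+ replicate 2 is the highest tdTom+ library in all 8 panels.

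Among the regulators, Klf1 (chr8:84901928-84905291, mm10, plus strand) had 108, 161 and 72 counts in tdTom+ replicates 1 to 3, against 15, 33 and 18 counts in tdTom- replicates 1 to 3. On the CPM scale this was 10.3 ± 4.07 in tdTom+ and 2.09 ± 0.672 in tdTom- cells (SD, n = 3 each). The lowest tdTom+ library, at 6.73 CPM, lay above the highest tdTom- library, at 2.79 CPM. Its log2 fold change of 2.29 ± 0.45 (SE) was the largest of the 8 and passed (edgeR adjusted p = 0.0307), corresponding to 4.90-fold. Leaving out tdTom+ replicate 1 or 2 or any tdTom- replicate ended this call (edgeR adjusted p between 0.0773 and 0.162), as did limma-voom (0.113).

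Nfe2 (chr15:103248212-103258403, minus strand) had 144, 174 and 98 counts in the tdTom+ libraries, against 41, 24 and 29 counts in the tdTom- libraries. Its mean was 12.6 ± 3.38 CPM in tdTom+ cells, against 3.09 ± 0.983 CPM in tdTom- cells (SD, n = 3 each), with every tdTom+ library above every tdTom- one. The log2 fold change of 2.03 ± 0.38 (SE), or 4.08-fold, passed (edgeR adjusted p = 0.0274). The same 5 single omissions ended the call of Nfe2 (edgeR adjusted p between 0.0748 and 0.126), and so did limma-voom (0.0651). Hemgn (chr4:46393989-46413506, minus strand) encodes hemogen, a nuclear protein of blood cell precursors. It had 62, 197 and 42 counts in tdTom+ libraries, against 18, 51 and 34 in tdTom- libraries, so that only tdTom+ replicate 2 stood well apart and the lowest tdTom+ library was below the highest tdTom- one. Hemgn had the widest spread of the 8, with a biological coefficient of variation of 51.4%, and its log2 fold change was 1.47 ± 0.60 (SE), which did not pass at an edgeR adjusted p of 0.393. Without tdTom+ replicate 2 that value was 0.51.

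Epor (chr9:21958897-21963506, minus strand) encodes the erythropoietin receptor. Counts were 184, 288 and 84 in tdTom+ libraries, against 70, 74 and 68 in tdTom- libraries. The tdTom+ libraries spread over 3.36-fold around 16.8 ± 9.27 CPM, while the tdTom- libraries were close together, at 6.89 ± 0.680 CPM (SD, n = 3 each), with tdTom+ replicate 3, at 7.85 CPM, just above the highest tdTom- library, at 7.61 CPM. The log2 fold change was 1.29 ± 0.40 (SE), which did not pass at an edgeR adjusted p of 0.195, and it passed without tdTom+ replicate 3 (adjusted p = 0.0239, log2 fold change 1.63). Without tdTom+ replicate 2 the log2 fold change was 0.80 (adjusted p = 0.419).

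For the membrane genes, Slc4a1, which encodes the anion exchanger band 3 (chr11:102348824-102366203, minus strand), had 288, 336 and 166 counts in tdTom+ libraries, against 117, 144 and 61 in tdTom- libraries. Its mean was 23.8 ± 7.72 CPM in tdTom+ and 10.1 ± 2.88 CPM in tdTom- libraries (SD, n = 3 each), and the groups did not overlap. Its log2 fold change was 1.23 ± 0.31 (SE), which missed the threshold at an edgeR adjusted p of 0.0970. Sptb, the gene of erythroid beta-spectrin (chr12:76580488-76710547, minus strand), had 45, 96 and 66 counts in tdTom+ libraries, against 16, 20 and 22 in tdTom- libraries. Again no library of one group reached into the other, and the log2 fold change was 1.73 ± 0.52 (SE), which did not pass at an edgeR adjusted p of 0.178. Ermap (chr4:119175457-119190011, minus strand), which encodes a membrane protein of erythroblasts that carries the Scianna blood group in humans, had 117, 132 and 60 counts in tdTom+ libraries, against 22, 29 and 34 in tdTom- libraries. Those groups were also apart, and its log2 fold change was 1.74 ± 0.44 (SE), which missed the threshold at an edgeR adjusted p of 0.0971. Slc4a1 and Ermap passed without tdTom+ replicate 3 (adjusted p = 0.0322 and 0.0380) and with DESeq2 (0.0121 and 0.0134), where 4 of the 8 genes passed and 1.65% of all genes were called higher in tdTom+ cells. In the authors' deposited table the same 4 genes, Klf1, Nfe2, Slc4a1 and Ermap, have an adjusted p under 0.05 (0.000325, 0.000224, 0.0117 and 0.0151). Of the 15135 genes given an adjusted p there, 1.39% were called higher in tdTom+ cells.

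The haem gene Alas2 differed least. Alas2 (chrX:150547375-150570638, plus strand) had 70, 167 and 64 counts in tdTom+ libraries, against 98, 68 and 32 in tdTom- libraries, and its groups overlapped. Its mean was 9.14 ± 5.33 CPM in tdTom+ cells, against 6.28 ± 3.00 CPM in tdTom- cells (SD, n = 3 each), and the difference of 0.54 ± 0.48 (log2 fold change, SE) did not pass at an edgeR adjusted p of 0.784. Without tdTom+ replicate 2 the sign turned, with a log2 fold change of -0.05. The gene is X-linked, and the 2 libraries of female cells were the lowest of their groups. In tdTom+ cells the margin was small, at 5.98 CPM in replicate 3 beside 6.14 CPM in replicate 1. The autosomal gene Slc4a1 was also lowest in replicate 3 of both groups, and a link to sex was not tested. Leaving out both libraries of female cells, a choice made with the values in view, gave a log2 fold change of 0.49 for Alas2. The exons of Alas2 share 311 bases with Apex2, a DNA repair gene on the opposite strand. The sources used here do not say whether counting used strand, so their reads cannot be told apart there. Apex2 itself averaged 39.5 CPM in tdTom+ against 35.7 CPM in tdTom- cells and did not pass (log2 fold change 0.14, edgeR adjusted p = 0.858).

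The ratio of Klf1 to Alas2 reads within each library, looked at after both genes' values were seen and not tested, was 1543, 964 and 1125 Klf1 reads per 1000 Alas2 reads in tdTom+ replicates 1 to 3, against 153, 485 and 562.5 in tdTom- replicates 1 to 3. Every tdTom+ library thus had more Klf1 relative to Alas2 than any tdTom- library. The same held for Nfe2 relative to Alas2, with 1042 to 2057 per 1000 in tdTom+ and 353 to 906 in tdTom- libraries, while the ratios of Epor, Slc4a1, Sptb, Hemgn and Ermap to Alas2 overlapped between groups.

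Per kilobase of exon (GENCODE M21 gene models, which may differ from the authors' models), Epor stood first in both fractions, at 8.44 ± 4.66 CPM per kb in tdTom+ and 3.46 ± 0.342 CPM per kb in tdTom- cells (SD, n = 3 each). In tdTom+ cells it was followed by Klf1 at 6.74 ± 2.66, Slc4a1 at 4.88 ± 1.58, Nfe2 at 4.21 ± 1.13, Alas2 at 3.80 ± 2.22, Hemgn at 3.64 ± 3.08, Ermap at 1.76 ± 0.630 and Sptb at 0.519 ± 0.199 CPM per kb. Apart from Ermap and Sptb, neighbours in this order were not separated, as their libraries overlapped. In tdTom- cells the order was Epor, Alas2, Slc4a1, Klf1, Hemgn, Nfe2, Ermap and Sptb, and again Ermap and Sptb were the one pair of neighbours whose libraries did not overlap. Klf1 was below Slc4a1 there, at 1.36 ± 0.439 CPM per kb. By level per kilobase, Klf1 lay at percentile 48.3 of all tested genes in tdTom+ and at percentile 19.1 in tdTom- cells. The 8 genes ranged from percentile 9.66 (Sptb) to 53.5 (Epor) in tdTom+ and from 1.15 (Sptb) to 33.9 (Epor) in tdTom- cells.

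The tdTom+ libraries differed among themselves in a shared way. Replicate 2 was the highest tdTom+ library in 8 of the 8 genes, where it is the highest in 34.1% of all tested genes, and replicate 3 was the lowest in 7, all but Sptb, where it is the lowest in 34.6% of all tested genes. Summed over the 8 genes, the level was 89.3, 142 and 61.0 CPM in tdTom+ replicates 1 to 3, against 38.5, 37.5 and 33.4 CPM in tdTom- replicates 1 to 3. Among tdTom- libraries no library was highest or lowest in more than 4 of the 8. For Klf1 the counting error of a library was 9.38% in tdTom+ and 21.3% in tdTom- cells, against a fitted biological coefficient of variation of 38.1%.

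Megakaryocyte markers shared the high replicate 2 of this pattern. Of 16 tested, 7 rose in tdTom+ cells and 0 fell with edgeR, where 0.769% of all tested genes were called higher. An unadjusted p under 0.05 was reached by 14, against 4.76% of all tested genes in this direction. With DESeq2 14 passed, where 1.65% of all genes were called higher, and with limma-voom 4 passed, where 148 genes were called in all. The median log2 fold change of these markers was 2.78. The highest tdTom+ library was replicate 2 in 13 of them, and the lowest was replicate 1 in 8 and replicate 3 in 8. The summed level of this marker list was 545 to 856 CPM in tdTom+ and 182 to 212 CPM in tdTom- libraries, and none of its 17 genes was at 0 in all libraries. The summed level of 17 macrophage markers was 106 to 168 CPM in tdTom+ and 54.1 to 68.4 CPM in tdTom- libraries. Of these, 12 were tested, and 1 rose, the mannose receptor gene Mrc1, which is also on the list of liver sinusoidal markers. The log2 fold change was positive in 11 of the 12, with a median of 0.46. The groups did not overlap in 4 with tdTom+ higher and 0 with tdTom+ lower, against 7.88% and 9.35% of all tested genes. The sum of the 17 macrophage markers was lowest of the tdTom+ libraries in replicate 2. Ptprc and Itgam, which encode proteins gated against, reached 4 and 6 counts in tdTom+ libraries and 22 and 12 counts in tdTom- libraries. Of the 13 progenitor markers, 9 were tested, 1 rose (Itga2b, also a megakaryocyte marker), 1 fell (Cd34) and Flt3 was at 0 in all libraries. Their sum was 1165 to 1430 CPM in tdTom+ and 1446 to 1532 CPM in tdTom- libraries. Mpo, a myeloid granule gene of that list that is named here after its values were seen, had 0, 707 and 1 counts in tdTom+ libraries, against 154, 46 and 18 in tdTom- libraries, and the granule gene Elane 0, 40 and 0 against 16, 0 and 0. The part of such cells in the differences of the 8 genes was not tested.

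Of 5 tested globin genes, whose transcripts are the main product of red cells, 0 passed with edgeR without a block and 1 passed with DESeq2. An unadjusted p under 0.05 (edgeR) was reached by 1, against 10.7% of all tested genes. The embryonic globin genes Hbb-y, Hba-x and Hbb-bh1 had log2 fold changes of 0.04 ± 0.22, 0.47 ± 0.32 and 0.17 ± 0.35 (SE), and none passed (edgeR adjusted p = 0.979, 0.694 and 0.928). Hbb-y had 1159, 1426 and 1810 counts in tdTom+ libraries, against 1830, 1319 and 901 in tdTom- libraries, overlapping over most of the range, and its sign turned without tdTom+ replicate 3 (-0.16) and without tdTom- replicate 2 or 3 (-0.06 and -0.11). The adult beta globin gene Beta-s, listed by RefSeq as a synonym of Hbb-bs, had 1298, 1668 and 970 counts in tdTom+ libraries, against 963, 705 and 431 in tdTom- libraries. Its log2 fold change was 0.83 ± 0.24 (SE), which did not pass at an edgeR adjusted p of 0.158 and passed with DESeq2 (adjusted p = 0.0138) and in edgeR with the replicate number as a term (0.0266). In tdTom+ cells it was highest in replicate 2 and lowest in replicate 3, as 7 of the 8 genes were. The minor alpha-like gene Hbq1b, at 11, 23 and 26 counts in tdTom+ libraries, against 9, 0 and 3 in tdTom- libraries, did not pass either. Hba-a1 and Hba-a2, which are near-identical copies, were listed at 0 in all libraries, so adult alpha globin could not be read. The adult beta globin gene Hbb-b2 was also at 0 in all libraries, and Hbb-bt had no row. Beta-s may thus not hold all adult beta globin reads.

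Relative to 1000 embryonic globin reads of the same library, Klf1 had 72.9, 88.9 and 31.0 reads in tdTom+ replicates 1 to 3, against 6.66, 20.7 and 16.7 reads in tdTom- replicates 1 to 3. Groups were also apart, with tdTom+ higher, in the ratios of Nfe2 and Sptb to embryonic globins, and they overlapped in those of Epor, Slc4a1, Alas2, Hemgn and Ermap. For Alas2 this ratio was 27.5 to 92.2 in tdTom+ and 29.6 to 43.5 in tdTom- libraries. Per 1000 Beta-s reads, Klf1 had 74.2 to 96.5 reads in tdTom+ and 15.6 to 46.8 in tdTom- libraries, Nfe2 had 101 to 111 in tdTom+ and 34.0 to 67.3 in tdTom- libraries, and the other 6 genes overlapped. Itga2b, the platelet integrin gene, itself rose by 2.78 ± 0.23 on the log2 scale in tdTom+ cells (SE; edgeR, adjusted p = 0.000292), more than any of the 8, so a lower mean ratio to it in tdTom+ libraries follows from its own change. Klf1 had 98.4, 104 and 94.1 reads per 1000 Itga2b reads in tdTom+ and 98.7, 193 and 128 in tdTom- libraries, so the ratio was nearly constant among tdTom+ libraries and did not separate the groups. In 6 of the 8, all but Klf1 and Hemgn, the groups were apart with tdTom+ lower. For Alas2 it was 63.8 to 108 in tdTom+ and 227 to 645 in tdTom- libraries. These ratios are descriptions and were not tested.

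**Figure D3:**
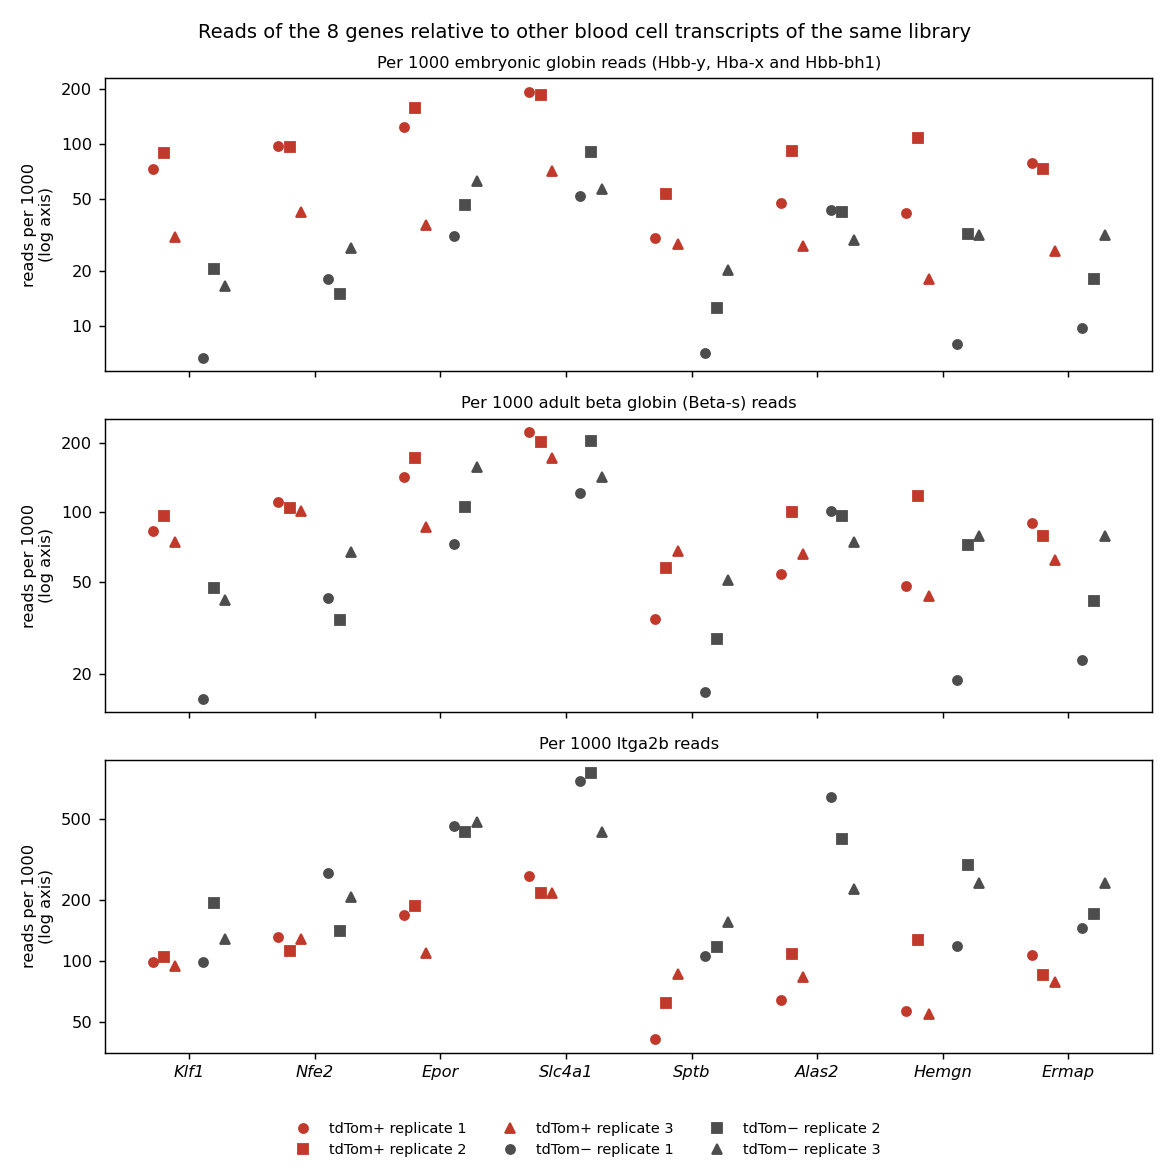
Reads of each of the 8 genes per 1000 reads of the embryonic globins (top), of the adult beta globin gene Beta-s (middle) and of the platelet integrin gene Itga2b (bottom) in the same library, on log axes, for tdTom+ (red) and tdTom- (grey) libraries. Klf1 and Nfe2 stand higher in tdTom+ libraries relative to both kinds of globin, while relative to Itga2b the tdTom+ values of Klf1 lie between 94.1 and 104, beside 98.7 to 193 in tdTom- libraries.

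Other transcription factors and cofactors of red cell precursors gave 1 call. Of 21 listed erythroid factors and cofactors, 19 were tested, 1 rose and 0 fell, and the median log2 fold change was 0.07. An unadjusted p under 0.05 was reached by 6, against 10.7% of all tested genes. The groups did not overlap in 5 with tdTom+ higher and 4 with tdTom+ lower, against 7.88% and 9.35% of all tested genes. With DESeq2 2 passed, Gata1 and Gfi1b. The gene that rose was Gata1, the main factor of red cell and megakaryocyte precursors, at 150, 240 and 126 counts in tdTom+ libraries, against 4, 13 and 6 in tdTom- libraries (log2 fold change 4.40 ± 0.47, SE, edgeR adjusted p = 0.00128). Gfi1b, a repressor of the same lineages, had 40, 58 and 57 counts in tdTom+ libraries, against 7, 6 and 7 in tdTom- libraries and missed the threshold (log2 fold change 2.83 ± 0.63, SE, edgeR adjusted p = 0.0563). Mafg, which encodes a small partner of NFE2, and Tcf3, a partner of TAL1, had log2 fold changes of 0.50 and -0.21 and did not pass (edgeR adjusted p = 0.312 and 0.326). Lmo2, Tal1, Gata2 and Ldb1 are also expressed by endothelial cells, and their log2 fold changes lay between -0.21 and 0.34.

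Red cell membrane genes gave calls in both directions, with most fold changes positive. Of 24 listed genes 22 were tested, 16 of them with a positive log2 fold change, and the median was 0.36. An unadjusted p under 0.05 (edgeR) was reached by 11, against 10.7% of all tested genes. The groups did not overlap in 9 with tdTom+ higher and 1 with tdTom+ lower, against 7.88% and 9.35% of all tested genes. By edgeR adjusted p, 2 rose and 1 fell. Those that rose were Cd59a, a complement inhibitor whose reads could be split with its near copy Cd59b, with a log2 fold change of 0.79 ± 0.12, and Cd47, a signal against phagocytosis, with 0.39 ± 0.08 (SE, edgeR adjusted p = 0.0101 and 0.0403). The one that fell was the glucose transporter gene Slc2a1, with -0.38 ± 0.07 (SE, edgeR adjusted p = 0.0191). All of these are expressed by endothelial cells as well, at 123, 268 and 704 CPM in tdTom+ and 71.3, 204 and 918 CPM in tdTom- cells. The call of Cd47 ended when any library other than tdTom+ replicate 3 was left out (adjusted p between 0.106 and 0.213) and with limma-voom (0.0539), that of Cd59a without tdTom- replicate 1 or 3 (0.0561 and 0.0576), and Slc2a1 did not pass when tdTom+ replicate 1 (0.0673), tdTom- replicate 2 (0.0742) or tdTom- replicate 3 (0.0949) was left out. Rhag, an ammonia channel gene of the Rh complex, had 123, 102 and 61 counts in tdTom+ libraries, against 28, 25 and 19 in tdTom- libraries and missed the threshold (log2 fold change 1.89 ± 0.43, SE, edgeR adjusted p = 0.0598). With DESeq2 6 of the 22 passed, and Rhag was among them (adjusted p = 0.00379). Ank1, which encodes the ankyrin that ties band 3 to the spectrin skeleton, had at most 16 counts in any library and was not tested.

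The remaining haem pathway showed small differences. Of 18 listed haem synthesis genes 17 were tested, 0 passed with edgeR and 1, Cpox, passed with DESeq2. An unadjusted p under 0.05 (edgeR) was reached by 5, against 10.7% of all tested genes. The groups did not overlap in 3 with tdTom+ higher and 0 with tdTom+ lower, against 7.88% and 9.35% of all tested genes. A positive log2 fold change was seen in 14, and the median was 0.17. Cpox, a later enzyme of the pathway, came closest, at 65.8 ± 8.74 CPM in tdTom+ cells, against 42.6 ± 2.80 CPM in tdTom- cells (SD, n = 3 each, log2 fold change 0.63, edgeR adjusted p = 0.0597), and it passed with no filter on low counts, with a stricter one, with the replicate number as a term and with DESeq2 (adjusted p = 0.0464, 0.0488, 0.0449 and 0.00521). Alas1, the form of the first enzyme used by all cells, had 72.1 ± 10.3 CPM in tdTom+ cells, against 70.0 ± 5.10 CPM in tdTom- cells (SD, n = 3 each). Tmem14c and Slc25a37, which move porphyrin and iron into mitochondria, had log2 fold changes of 0.29 and 0.51 and did not pass.

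Downstream of the erythropoietin receptor, 16 of 18 listed genes were tested and 0 passed with edgeR or DESeq2. The median log2 fold change was 0.11, and 1 had an unadjusted p under 0.05 (edgeR), against 10.7% of all tested genes. The feedback inhibitor gene Socs2 was lower in every tdTom+ library than in any tdTom- library, at 13.3 ± 2.51 CPM in tdTom+ cells, against 22.3 ± 0.721 CPM in tdTom- cells (SD, n = 3 each), and did not pass (log2 fold change -0.75, edgeR adjusted p = 0.162). Jak2, the kinase bound to the receptor, Lyn and Socs3 had log2 fold changes of 0.35, 0.22 and 0.20 and did not pass. Epo itself had 3 counts in tdTom+ replicate 3 and 0 in the other 5 libraries.

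Of the paralogues, 33 of 45 listed genes were tested, 0 passed with edgeR and 3 passed with DESeq2, Nfe2l1 and Klf11 among them. An unadjusted p under 0.05 (edgeR) was reached by 7, against 10.7% of all tested genes. The median log2 fold change of the paralogues was -0.10, where the 8 genes had 1.60. Among those with the smallest p were Nfe2l1, a relative of Nfe2, with a log2 fold change of -0.37, and Klf11 and Klf8, relatives of Klf1, with -0.58 and -1.07 (edgeR adjusted p = 0.103, 0.106 and 0.204). The endothelial genes Klf2 and Klf4, the general beta-spectrin gene Sptbn1 and the exchanger gene Slc4a2 had log2 fold changes of -0.12, -0.06, 0.18 and -0.19.

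**Figure D4:**
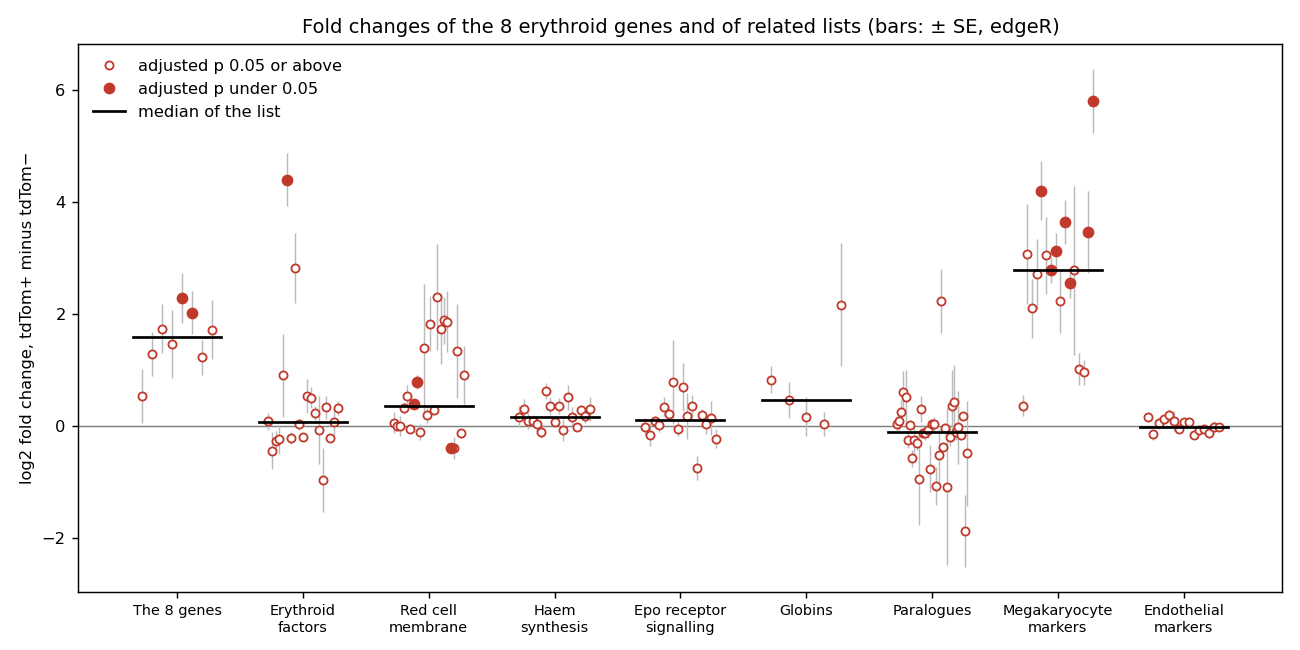
Log2 fold change (tdTom+ minus tdTom-, vertical axis, bars ± SE) of each tested gene of the 8 erythroid genes and of related lists, filled where the edgeR adjusted p is under 0.05, with the median of each list as a black line. The 8 genes lie between 0.54 and 2.29, the megakaryocyte markers have a median of 2.78, and the medians of haem synthesis, erythropoietin receptor signalling and paralogues are 0.17, 0.11 and -0.10.

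Among the other 10075 genes whose mean log2 CPM reached 3, those whose log2 CPM followed the mean of the 8 genes most closely over the 6 libraries were Chst7, Zbtb8os, Cycs, Tstd3 and Tinagl1, with Pearson's r of 0.983 to 0.986. Their own log2 fold changes were small, at 0.40, 0.33, 0.18, 0.37 and 0.29, and none passed with edgeR.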

How the data were processed

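RNA was amplified with the SMART-seq V4 kit and made into libraries with Nextera XT, per the labels' protocols. For each gene symbol the deposited table holds the authors' whole-number read counts, not normalized. It also holds the authors' own log2 fold change and p-value, deposited as tdTom- over tdTom+, of which only p-values are given here. Tools named in the submitters' processing notes, without role or order, are DESeq2 (no version), featureCounts 1.4.6, Picard 2.7.1.1, Trimmomatic 0.36.4 and STAR 2.5.2b, and the build is mm10. Reads carry no molecular identifiers, so counting errors cover counting only.

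In R 4.3.3, edgeR 4.0.16 was run without a block (TMM scaling, filterByExpr at 10 counts, robust and two-sided quasi-likelihood test). Adjusted p-values are Benjamini-Hochberg values over 13142 genes, called under 0.05. Each SE is the absolute log2 fold change over the square root of the F statistic. CPM uses TMM-scaled library sizes. Alternatives were limma-voom 3.58.1, DESeq2 1.42.0, other scalings and filters, a replicate block and omitted libraries. The fit was tested on simulated data. Library pairs within a group differed by more than sampling noise (mean chi-square per gene 8.02 to 19.3). The genes and lists were chosen with earlier results of these data known. Named genes are the 8, up to 4 per related list by smallest p, all tested globins, and the 5 most similar profiles. Others are named for their role, and some genes the rule picks are not reported here.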

Additional observations from a re-analysis of the deposited data

How the results depend on the processing

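The number of the 8 genes called higher was 2 in the reported fit. It was 4 with DESeq2, 0 with limma-voom and 0 with both libraries numbered 3 left out, a choice made after seeing the data. Leaving out 1 library at a time gave 0 to 5. Over all genes the calls numbered 208 in the reported fit, 484 with DESeq2, 43 with both libraries numbered 3 left out, and 62 to 189 with 1 library left out. Fewer libraries enter the last 2 fits, and the cause of the DESeq2 and limma-voom differences was not tested. With the other scalings and filters the number stayed at 2, and it was Klf1 and Nfe2 each time.

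The log2 fold change of Alas2 ranged from -0.055 to 0.96 with 1 library left out, and the negative value came without tdTom+ replicate 2. For Hbb-y that range was -0.16 to 0.33, with values below 0 without tdTom+ replicate 3 or tdTom- replicate 2 or 3. With both libraries numbered 3 left out it was -0.32 for Hbb-y and -0.058 for Hba-x. The other 7 genes of the 8 kept a positive sign in every alternative.

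The replicate number was not taken as pairing the libraries. Deviations of same-numbered libraries from their group means correlated at r = 0.11, 0.089 and 0.16, and every library correlated best with its own number, which is a hint from the data and not from the design. With the replicate block, 3 of the 8 genes were called, Slc4a1 (edgeR adjusted p = 0.0201) beside Klf1 and Nfe2, and 295 genes in all. It also called Beta-s (0.0266) and Cpox (0.0449) and changed no call of the other 35 named genes.

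At 15 to 336 counts per library, a difference like that of Alas2 could not be told from the spread between libraries.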

Other observations

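Fetal liver is the main site of red cell formation at this stage, so markers of liver sinusoidal endothelium and of hepatoblasts were summed. The cells came from whole embryos, and whether these reads came from liver was not tested. Of 12 sinusoidal markers 11 were tested and 10 rose in tdTom+ cells (edgeR), where 0.769% of all tested genes were called higher. Mrc1 of the macrophage list was among the 10. The summed level of all 12 sinusoidal markers was 2943 to 3289 CPM in tdTom+ and 1345 to 1460 CPM in tdTom- libraries. Of 13 hepatoblast markers 10 were tested and 0 passed with edgeR or DESeq2. An unadjusted p under 0.05 (edgeR) was reached by 2, against 10.7% of all tested genes. The summed level of all 13 hepatoblast markers was 174 to 204 CPM in tdTom+ and 232 to 467 CPM in tdTom- libraries. Both sums separated the groups, in opposite directions, and neither was highest in tdTom+ replicate 2, the library where each of the 8 erythroid genes was highest among tdTom+ libraries. How these levels relate to the 8 genes was not tested.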
